A study of Harpegnathos saltator with 19 samples.

Results

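The comparison described here set the central brains of Harpegnathos saltator workers injected with 20-hydroxyecdysone (20E) against those of workers injected with the DMSO control. It used 12 of the 19 libraries of the series, 7 of 20E and 5 of DMSO, chosen by their treatment labels. The other 7 libraries came from workers injected with juvenile hormone III (JH3), and they entered the fit to estimate the spread between ants. Harpegnathos saltator is an ant whose workers can turn into reproductives. The hormones were given into the head of adult workers, 100 ng of 20E or of JH3 in 5% glucose, and the brain was taken 10 h later, per the labels. Each library held the brain of a single ant. Age is not given in the labels. The injection into the head was shared by all 3 groups, so its own effect is not part of the comparison.

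In insects 20E is the active moulting hormone. It binds the nuclear receptor EcR, which pairs with Ultraspiracle, and the pair switches on early genes that are themselves transcription factors, such as E75, Hr4 and Eip74EF. In the fly the same hormone reshapes neurons at metamorphosis, with changes in the cytoskeleton, in adhesion and in cell signalling, and adult brains keep responding to it. The functions given below are those of the fly gene of the same symbol.

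Levels are the FPKM values deposited by the authors (fragments scaled to gene length and to library depth). Whole reads could be read back from them, at 15.58 to 22.71 M reads on genes in 20E and 18.27 to 25.52 M in DMSO. A gene was tested when it reached 1 FPKM in at least 5 of the 19 libraries, which kept 9381 of 14001 genes (67%). The test was limma on log2(FPKM + 0.5), with the run label of the samples as a term, and its p-values were Benjamini-Hochberg adjusted over all tested genes with a threshold of 0.05. Replicates 1 to 3 carry the run label 190514 and the others 200212, and 4779 tested genes (50.9%) differed between the runs. The p-values measure the spread between these single ants. In RNA from all cells of a central brain together, fewer cells of a type and less RNA per cell cannot be told apart.

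Of the brains used here, 20E replicate 6 stood apart. Each brain was set against the mean of the other brains of its group and run. For DMSO replicates 4 and 5 that mean was a single brain. The log2 values of 20E replicate 6 had an SD of 0.68 over the tested genes, against 0.30 to 0.52 in the other 11 brains. It had 300 genes more than 1 log2 unit above that mean and 845 below it. It also held the highest marker levels of the 12 brains for neurons (a mean log2 level of 6.70, at most 6.36 in the others), glia (5.58, at most 5.38), haemocytes (2.85, at most 2.36) and trachea and epidermis (2.74, at most 2.39). The authors' scale for this brain was 0.763 times that of total reads, against 0.898 to 1.125 times in the other 11 brains. A lower scale lifts every FPKM value, so the levels given here for 20E replicate 6 would be lower under scaling to total reads. Marker levels on that scale were not computed. In 20E replicate 6 Kr-h1, the juvenile hormone response factor, was at 14.4 FPKM, against 1.72 to 2.91 in the other 20E brains. The basement membrane genes SPARC, Ndg, Col4a1 and trol were at 166, 20.0, 11.2 and 13.1 FPKM in it, each the highest of the 12. Their part in the results was not tested, and list counts without this brain are given where they differ in a list reported here.

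The brain response to 20E was lopsided, with many more genes up than down. Of 9381 tested genes, 313 passed the threshold (3.34%), 243 of them higher in 20E (2.59%) and 70 lower (0.746%). Without adjustment 848 genes had a p under 0.05. The rises were also larger than the falls. Their median log2 fold change was 0.71, with quartiles at 0.53 and 0.99, against a median of -0.52 for the falls and -0.01 for all tested genes. More than 4-fold changes were found for 13 rises and 0 falls, and more than 2-fold changes for 59 rises and 4 falls. Among the 13, sing, Np and LOC105180779 met the filter only with the 20E brains counted. The filter thus had a part in choosing them as higher. Small changes were common, since 51 rises and 32 falls stayed within 0.5 log2 units.

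Calls are counted here by expression level. Of the 208 genes with at least 100 FPKM in DMSO, 0 passed the threshold by limma and 0 by limma-voom. At an unadjusted limma p under 0.05, 9 of them were higher and 7 lower, beside 848 of all 9381 tested genes in either direction. Between 20 and 100 FPKM 48 of 1573 genes rose and 24 fell. Between 5 and 20 FPKM 110 of 4250 rose and 32 fell, and between 1 and 5 FPKM 63 of 3034 rose and 13 fell. Among the 316 genes below 1 FPKM, 22 rose and 1 fell. A gene below 1 FPKM in DMSO could enter the test only through higher levels in other brains, so that last count is a description of the filter as much as of the genes. Of all 243 rises, 14 met the filter only with the 20E brains counted, among them Cyp18a1, Np, sing, Gasp, bark and LOC105180779. The filter had a part in choosing these as higher, so their values are a description. Called genes were long: the relative gene length, read from the FPKM grid, had a median of 1.72 times that of all tested genes for the rises and 1.44 times for the falls. The Spearman correlation of the log2 fold change with relative length across all tested genes was 0.13, where genes share the same libraries. With the length trend of each library removed, a setting chosen after seeing the data, 277 genes were higher and 98 lower.

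**Figure D1:**
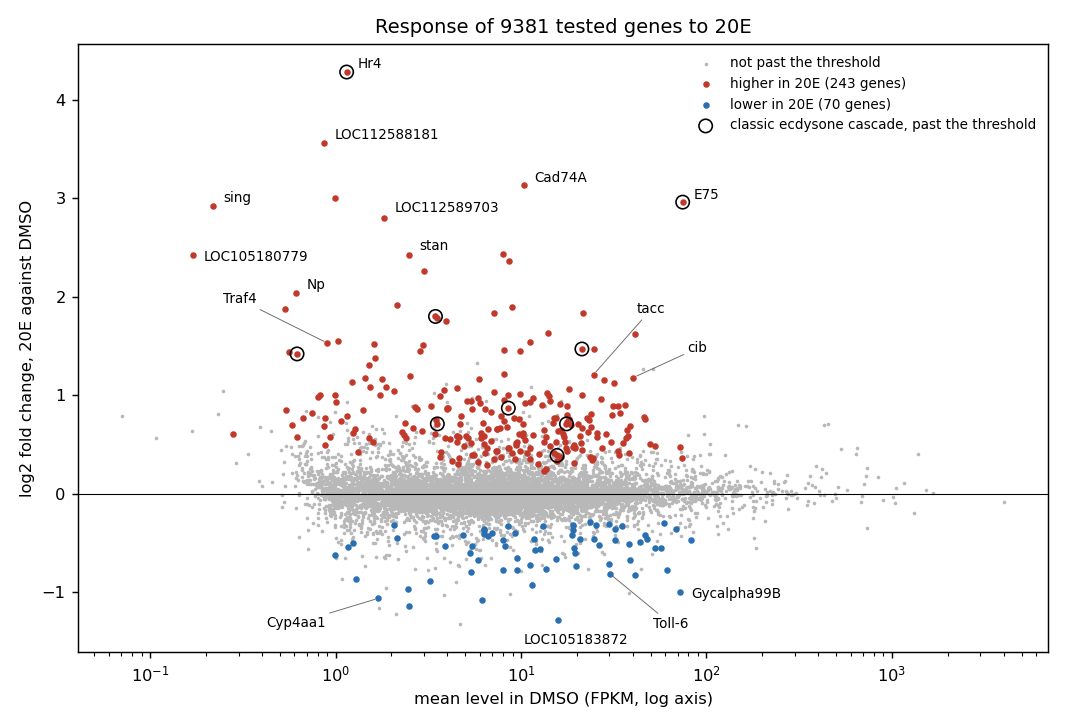
Log2 fold change of 20E against DMSO (vertical axis) against the mean DMSO level in FPKM (horizontal log axis) for the 9381 tested genes, with one point per gene. Red points are the 243 rises and blue points the 70 falls. The circled members of the classic ecdysone cascade lie among the rises, from Hr4 at 4.28 to Eip63E at 0.39, and no coloured point lies at or above 100 FPKM.

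Most called genes had no gene name. A symbol was available for 102 of the 243 rises and 31 of the 70 falls, close to the share among all tested genes (41.2%). By RefSeq class, 237 rises and 68 falls were protein coding, out of 8846 such genes tested. Of 417 long non-coding RNA (lncRNA) genes 6 rose and 1 fell (1.68%), and of 112 pseudogenes 1 fell. Of the rises, 143 (58.8%) had all 7 brains of 20E above all 5 of DMSO, and of the falls 27 (38.6%) had them all below. Among all tested genes 190 (2.03%) were free of overlap. Within each run taken alone, each of the 313 called genes moved in its called direction, which uses the libraries that gave the calls. A difference of the 20E effect between the runs passed adjustment in 0 genes by limma, with 207 genes under 0.05 before adjustment.

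The called genes moved in their called direction in each of the 7 ants given 20E at the median, and with few exceptions gene by gene. Against the DMSO mean of its run, all 243 rises lay higher in 5 of the ants, 242 in replicate 6 and 234 in replicate 7. All 70 falls lay lower in 5 ants, 69 in replicate 4 and 65 in replicate 6. Against the DMSO mean of their own run, the 243 rises had a median deviation of 0.72, 0.75 and 0.84 log2 units in 20E replicates 1 to 3. It was 0.54, 0.60, 0.96 and 0.48 in replicates 4 to 7. The DMSO brains lay between -0.13 and 0.16 on the same measure. For the 70 falls the deviations were -0.50, -0.60, -0.57, -0.60, -0.53, -0.35 and -0.59 in replicates 1 to 7, and -0.07 to 0.10 in DMSO. These genes were chosen on the same brains, so the values describe how evenly the response was spread and are not a test. The ant that stood apart, 20E replicate 6, had the strongest rise of its run in 184 of the 243 genes (75.7%) and the weakest fall in 44 of the 70. Without it 242 genes were higher and 112 lower. Of these, 228 rises and 68 falls were shared with the fit of all ants, and 44 falls were gained.

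**Figure D2:**
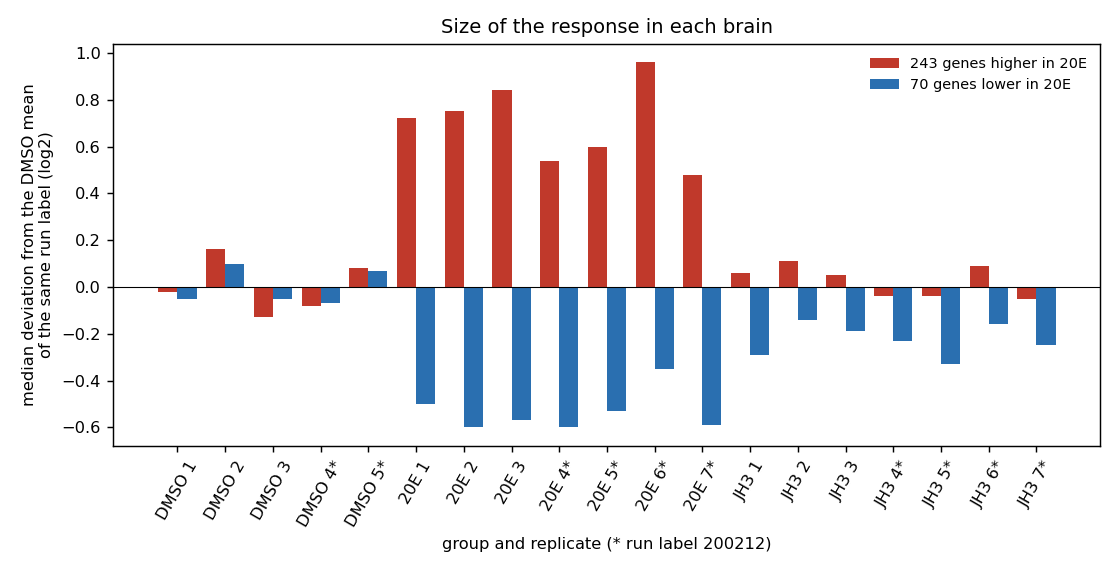
Median deviation (log2) of the 243 rises (red) and the 70 falls (blue) from the DMSO mean of the same run, with a pair of bars per brain and an asterisk for run label 200212. The 7 brains of 20E lie at 0.48 to 0.96 for the rises and at -0.60 to -0.35 for the falls, and the bars carry no error because each is 1 brain.

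Genes of the classic ecdysone cascade rose in part. Of 18 tested members 9 rose (50%, beside 3.34% called among all tested genes) and 0 fell by limma, with a list median of 0.68 and 11 higher and 0 lower at an unadjusted p under 0.05. On the reads read back, limma-voom gave the same number of rises and falls as limma in each of the gene lists described here. The lists were chosen with earlier results of these data known, so their shares of called genes are descriptions. The 9 rises were Hr4, E75, E23, Eip74EF, Cyp18a1, Oatp74D, Hr39, Hr3 and Eip63E, with log2 fold changes from 4.28 down to 0.39. Cyp18a1 met the filter only with the 20E brains counted. Oatp74D, which encodes an ecdysone importer, was the narrowest (0.87 ± 0.22 SE, limma adjusted p = 0.0391). Its call ended without any of 20E replicates 1 to 5 or DMSO replicates 1 to 4 (0.73 to 0.96 over the fits that left out 1 brain each). The highest uncalled members were Blimp-1, a transcriptional repressor gene (0.72), and Kr-h1 (0.66). In 20E replicate 6 Blimp-1 was at 23.4 FPKM, against 5.35 to 11.2 FPKM in the other 20E brains.

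Outside the cascade several genes of the cytoskeleton rose in the 20E brains, and they are given gene by gene, with no count over a list. The actin-binding gene cib and the microtubule gene tacc, which no list held, were among them.

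The actin-monomer-binding β-thymosin gene cib (ciboulot) was at 42.7, 49.9, 42.6, 29.6 and 36.8 FPKM in the 5 DMSO brains. In the brains given 20E it ran from 75.6 to 102 FPKM with a median of 88.6. Every 20E brain lay above every DMSO brain, and the log2 fold change was 1.18 ± 0.11 (SE, limma adjusted p = 1.8e-06, 0.98 and 1.4 within the runs). The gene tacc, whose protein binds centrosomes and microtubules, was at 23.4, 31.0, 23.4, 22.8 and 22.5 FPKM in DMSO and at 45.3 to 75.8 FPKM (median 55.6) in 20E. Its groups did not overlap either, with a log2 fold change of 1.21 ± 0.12 (limma adjusted p = 1.68e-06, 1.02 and 1.4 within the runs).

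SCAR, which activates the Arp2/3 complex to branch actin filaments, was at 9.83, 10.9, 7.61, 13 and 16.4 FPKM in DMSO and at 18.6 to 38 FPKM (median 22.6) in 20E. The highest DMSO brain stayed under the lowest 20E brain, and the highest 20E value was that of replicate 6 (log2 0.97 ± 0.14, limma adjusted p = 0.000265, 0.90 without replicate 6). The gene ssh (slingshot), a phosphatase that activates cofilin, rose by 0.76 ± 0.16 (adjusted p = 0.00688), with overlapping groups. The formin gene Frl (0.35 ± 0.09, adjusted p = 0.046) and the DOCK-family exchange factor gene spg (0.68 ± 0.18, adjusted p = 0.046) passed more narrowly. Without 20E replicate 6 neither Frl (adjusted p = 0.0641) nor spg (0.0651) passed. Frl and spg also lost their calls in other fits that left out 1 brain. These were the fits without 20E replicates 1, 2, 3 or 5 or DMSO replicates 1, 3 or 4 for both, without 20E replicate 4 for Frl, and without DMSO replicate 5 for spg (0.30 to 0.41 for Frl, 0.57 to 0.77 for spg). Scaling to total reads also ended the call of Frl (adjusted p = 0.104). Under the fit that took replicate numbers as a block and dropped the run term, Frl had an adjusted p of 0.0578 and spg of 0.0587.

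Further genes of this kind were chosen after their values were seen. The stathmin gene stai, which destabilises microtubules, went from 46.1 ± 4.77 FPKM (SD, n = 5) to 79.4 ± 15.1 FPKM (n = 7), with no overlap (log2 0.78 ± 0.13, limma adjusted p = 0.00104). The gene milt (milton), which links mitochondria to the kinesin motor, went from 38.9 ± 10.9 to 65.2 ± 10.7 FPKM (0.69 ± 0.11, adjusted p = 0.000956). The septin gene pnut rose by 0.72 ± 0.15 (adjusted p = 0.0074), the shroom gene Shrm by 0.77 ± 0.14 (adjusted p = 0.00184) and sick, a gene of axon growth, by 0.73 ± 0.14 (adjusted p = 0.00316).

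A few cell junction and polarity genes rose, while most did not pass. Of 40 tested cadherin, junction and polarity genes 6 rose and 0 fell by limma (15%, beside 3.34% of all tested genes, list median 0.09), with and without 20E replicate 6. At an unadjusted p under 0.05 the list had 11 higher and 0 lower. As with the other lists, its share is a description. Besides the cadherin genes Cad74A and stan and the scaffold gene pyd, which were among the 10 largest rises with a symbol, they were bark, Gli and l(2)gl. The uncalled members lay between -0.20 (Cad88C) and 0.41 (Cad96Ca). In stan, a cadherin gene of planar polarity, the DMSO brains were at 1.41, 2.03, 0.967, 3.52 and 4.48 FPKM and the 20E brains at 9.78 to 32.3 FPKM (median 13.5). In pyd, the gene of the ZO-1 junction scaffold, they were at 3.11, 3.10, 2.22, 4.47 and 6.75 FPKM and at 10.2 to 29.0 FPKM (median 14.3). Both genes were higher in the DMSO brains of run 200212 than in those of run 190514, and in both the 20E group still lay wholly above. The junction genes bark and Gli, which build the corners where 3 cells meet in the fly, were lower in level. For bark the DMSO values were 0.544, 1.13, 0.445, 0.970 and 0.949 FPKM, and 20E ran from 0.967 to 6.09 FPKM (median 2.24), with overlap (0.98 ± 0.22, limma adjusted p = 0.0153), and it met the filter only with the 20E brains counted. The call of bark ended without DMSO replicate 4 or 5 (0.82 to 1.12 over the fits that left out 1 brain each). Gli rose by 0.57 ± 0.14 (adjusted p = 0.0237) and l(2)gl, a polarity gene, by 0.43 ± 0.10 (adjusted p = 0.0231). The call of Gli ended without 20E replicates 1 or 3 or DMSO replicates 1, 3, 4 or 5 (0.53 to 0.62). The call of l(2)gl ended without 20E replicates 1 or 3 or DMSO replicates 1, 3 or 4 (0.35 to 0.49), and with the replicate block the adjusted p was 0.0674 for Gli and 0.062 for l(2)gl. Scaling to total reads also ended the call of Gli (adjusted p = 0.0993). The septate junction scaffold gene vari, chosen after its values were seen, was at 14.4, 17.3, 13.4, 13.9 and 18 FPKM in DMSO and at 21.7 to 39.3 FPKM in 20E (median 27.4, log2 0.77 ± 0.12, adjusted p = 0.000571).

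Cell surface genes that wire neurons had few calls. Of 36 tested axon guidance, adhesion and wiring genes 2 rose and 1 fell (8.33%, beside 3.34% of all tested genes, list median 0.16). The metalloprotease gene kuz (kuzbanian), which cleaves Notch and guidance receptors, was at 29.0, 31.1, 26.0, 32 and 36.6 FPKM in DMSO. In 20E it was at 44.9 to 71.7 FPKM with a median of 52.9, above every DMSO brain (log2 0.80 ± 0.12, limma adjusted p = 0.000304, 0.86 and 0.68 within the runs). Dscam2, a receptor by which like neurites repel each other, was at 10.0, 11.9, 5.59, 17.4 and 26.0 FPKM in DMSO and 16.1 to 37.2 FPKM in 20E (median 30.7). Those groups overlapped, and the change was 1.5 in run 190514 and 0.37 in run 200212 (0.99 ± 0.24, adjusted p = 0.0231). Its call ended without 20E replicates 1 or 3 or DMSO replicates 1 or 3 (0.77 to 1.22). The adhesion gene sdk (sidekick), outside the list, rose from 1.23 ± 0.656 to 3.56 ± 1.54 FPKM without overlap (1.13 ± 0.19, adjusted p = 0.00104).

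The fall in this list was Toll-6, a Toll-family receptor gene that the fly uses in neurons. It was at 31.8, 34.4, 25.1, 26.4 and 32.8 FPKM in DMSO and at 14.9 to 18.2 FPKM in 20E (median 16.7). The 20E brains were tightly grouped and wholly below DMSO (log2 -0.81 ± 0.10, limma adjusted p = 2.49e-05, -0.77 and -0.84 within the runs).

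Synaptic genes showed no call with all brains. Of 46 synaptic vesicle and active zone genes 0 rose and 0 fell by limma, with a median of 0.08 and 3 higher and 1 lower at an unadjusted p under 0.05. Without 20E replicate 6 there was 1 fall, the transporter gene ine (-0.74, limma adjusted p = 0.00368), which was at 34.4 FPKM in that brain and at 12.1 to 20.6 FPKM in the other 20E brains. The voltage-gated and other ion channels had 1 rise and 1 fall among 51 genes (3.92%, near the 3.34% of all tested genes). They had 2 falls without 20E replicate 6, with the innexin gene Inx3 added (-0.55, adjusted p = 0.0282). The chloride channel gene ClC-a went from 6.53 ± 0.817 to 9.52 ± 1.4 FPKM without overlap (0.47 ± 0.10, adjusted p = 0.00583), and the sodium channel subunit gene Teh4 fell (-0.60 ± 0.13), a call that ended without DMSO replicate 5 (-0.54). Of 37 transmitter and peptide receptor genes the serotonin receptor gene 5-HT2A and the SIFamide receptor gene SIFR rose (5.41%). The 5-HT2A values were 6.04, 6.15, 4.84, 5.81 and 6.99 FPKM in DMSO and 10.0 to 19.7 FPKM in 20E (median 15.3). SIFR was low and scattered, at 1.06, 2.02, 0.378, 2.48 and 1.59 FPKM in DMSO and 2.36 to 9.65 FPKM in 20E. The 5-HT2A groups were apart, while those of SIFR overlapped. The call of SIFR ended without 20E replicate 3 or DMSO replicates 1 or 3 (1.06 to 1.49 over the fits that left out 1 brain each), and with the replicate block its limma adjusted p was 0.0632.

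Among second-messenger genes the falls outnumbered the rises. Of 50 tested cyclic nucleotide, calcium and G-protein genes 1 rose and 4 fell (10%, beside 3.34% of all tested genes, list median 0.05). The fallers were Gycalpha99B and Gycbeta100B, which encode the subunits of the nitric oxide-sensitive guanylate cyclase, Galphai, an inhibitory G-protein subunit gene, and krz, the arrestin gene kurtz. Gycalpha99B was at 66.7, 76.0, 72.7, 61.5 and 84.7 FPKM in DMSO and at 27.3 to 44.7 FPKM in 20E (median 35.5). Every 20E brain was lower than every DMSO brain. Its partner Gycbeta100B was at 58.7, 71.7, 61.5, 47.5 and 54.7 FPKM in DMSO and at 34.7 to 53.3 FPKM in 20E (median 46.7). Here the groups overlapped and the change was smaller (-0.30 ± 0.07, limma adjusted p = 0.029). That call ended without 20E replicates 1, 2 or 3 or DMSO replicates 2 or 5 (-0.33 to -0.26). The Galphai values were 8.85, 9.83, 11, 8.84 and 8.02 FPKM in DMSO and 6.29 to 7.95 FPKM in 20E (median 6.72), without overlap (-0.40 ± 0.08, adjusted p = 0.00388). For krz the change was -0.36 ± 0.08 (adjusted p = 0.0155), and its call ended without DMSO replicate 4.

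The riser in the same list was rdgA, a diacylglycerol kinase gene that fly photoreceptors need. It was at 15.3, 18, 13.1, 21.4 and 22.8 FPKM in DMSO and at 32.9 to 50.8 FPKM in 20E (median 37.0). The groups were well apart (log2 1.06 ± 0.12, limma adjusted p = 2.41e-05). The mean log2 level of the eye markers, of which rdgA is one, varied between ants in both groups, from 1.87 to 3.70 in DMSO and from 2.03 to 3.55 in 20E. Of 14 tested eye markers rdgA rose and sev fell (14.3%, beside 3.34% of all tested genes). The photoreceptor myosin gene ninaC ran from 0.133 to 4.11 FPKM in DMSO and from 0.0949 to 2.40 FPKM in 20E. The part of optic tissue in the rdgA and sev results was not tested.

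**Figure D3:**
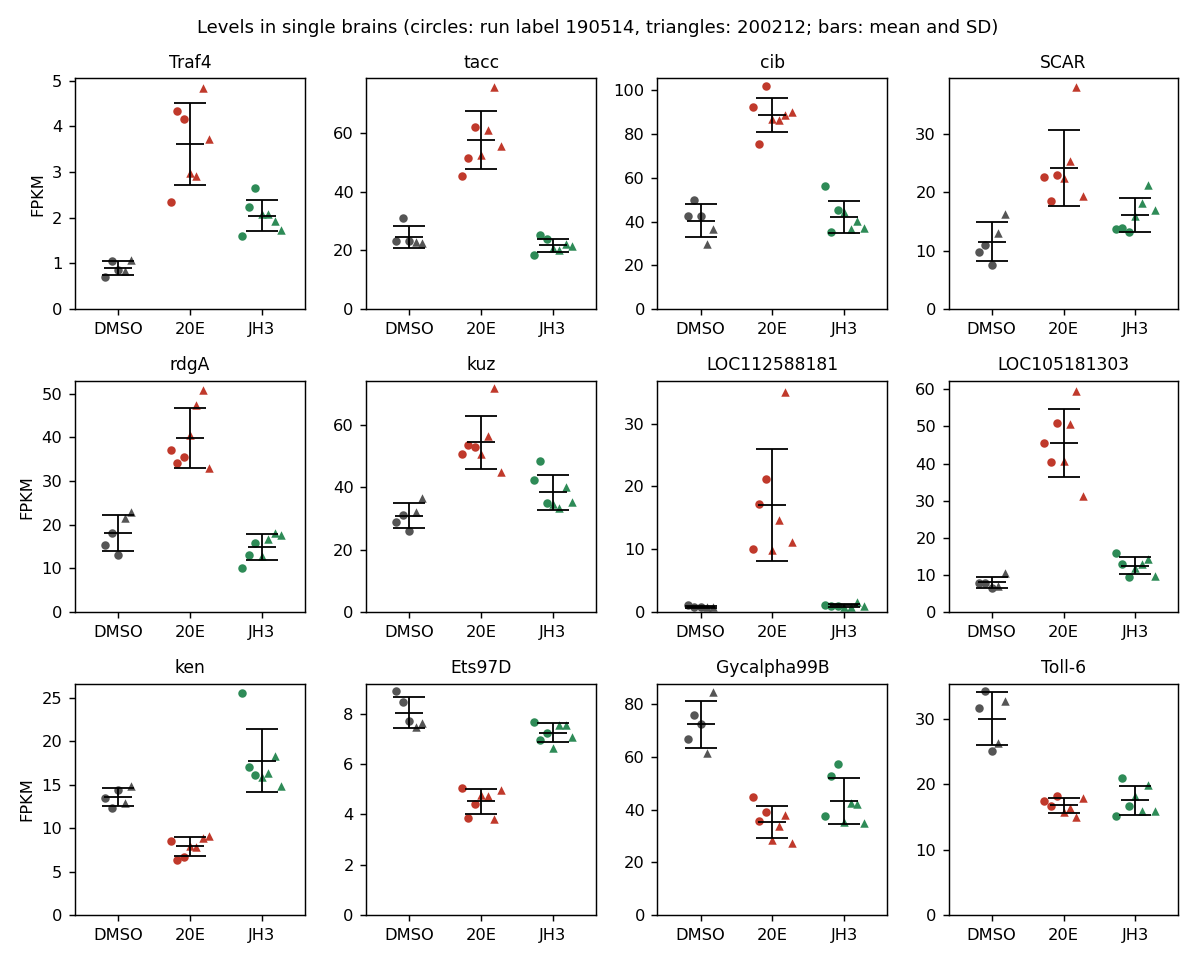
FPKM in each brain for 8 rises and 4 falls, with DMSO in grey, 20E in red and JH3 in green, circles for run label 190514, triangles for 200212, and bars for the mean and SD. In the 12 genes drawn the 20E points lie wholly above or wholly below the DMSO points, for example at 75.6 to 102 FPKM against 29.6 to 49.9 FPKM in cib.

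Genes of developmental signalling were raised in small numbers. Of 84 tested members 5 rose and 1 fell (7.14%, beside 3.34% of all tested genes, list median 0.00). Traf4, an adaptor gene of TNF receptor and Toll signalling, was at 0.707, 1.04, 0.863, 0.835 and 1.07 FPKM in DMSO and at 2.35 to 4.84 FPKM in 20E (median 3.73). It rose in every ant given 20E above every control (log2 1.53 ± 0.15, limma adjusted p = 2.19e-06, 1.55 and 1.48 within the runs). The Hedgehog receptor gene ptc was at 0.782, 1.21, 0.764, 0.969 and 1.34 FPKM in DMSO and at 1.72 to 4.42 FPKM in 20E (median 2.24). Its groups were apart too, and the highest value was that of 20E replicate 6 (0.93 ± 0.16, adjusted p = 0.00155, 0.82 without that brain). The gene rdx (roadkill), outside the list, encodes the ubiquitin ligase adaptor that degrades the Hedgehog effector Ci. It went from 28.2 ± 1.86 FPKM (SD, n = 5) to 63.0 ± 6.80 FPKM (n = 7), with 54.6 FPKM as the lowest 20E value and 30.5 FPKM as the highest DMSO value (1.16 ± 0.10, adjusted p = 4.98e-07). Pvr, the PDGF and VEGF receptor gene, rose by 0.86 ± 0.17 (adjusted p = 0.00584). The activin gene Actbeta rose by 0.74 ± 0.19 (adjusted p = 0.0313), a call that ended without any of 20E replicates 1 to 3 or DMSO replicates 1, 2, 3 or 5 (0.69 to 0.81). The call of the falling sev gene (-0.60 ± 0.15, adjusted p = 0.0312) ended without any of 20E replicates 1 to 4 or 7 or DMSO replicates 2, 4 or 5 (-0.69 to -0.54).

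Transcription factor genes outside the cascade moved both ways. Of 67 tested members 5 rose and 5 fell (14.9%, beside 3.34% of all tested genes, list median -0.01). The risers were cyc, tna, Myc, chinmo and Ets98B, and the fallers per, Ets97D, ken, klu and dsx. There were 6 falls without 20E replicate 6, with the homeobox gene Dll added (-0.47, limma adjusted p = 0.0137).

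Among the risers, chinmo, a zinc finger gene that marks early-born neurons in the fly, was at 7.37, 7.34, 6.14, 9.82 and 11.7 FPKM in DMSO and at 14.1 to 30.1 FPKM in 20E (median 17.1). The clock gene cyc (cycle) was at 1.48, 2.54, 1.69, 2.50 and 2.09 FPKM in DMSO and at 3.29 to 6.40 FPKM in 20E (median 4.66). Myc, a transcription factor gene of cell growth, was at 1.25, 2.43, 1.36, 1.85 and 1.78 FPKM in DMSO and at 3.06 to 5.48 FPKM in 20E (median 4.16). The 20E and DMSO brains did not overlap for any of these genes. Their log2 fold changes were 1.0 ± 0.14 for chinmo (limma adjusted p = 0.000243), 1.04 ± 0.17 for cyc (adjusted p = 0.000758) and 1.0 ± 0.15 for Myc (adjusted p = 0.0004). The gene tna, whose SP-RING protein works with the Brahma complex, rose by 1.02 ± 0.15 (adjusted p = 0.000265). Its DMSO brains were at 11, 13.2, 8.58, 15.4 and 20.9 FPKM, and the lowest 20E brain, at 20.8 FPKM, just overlapped them.

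Among the fallers, ken, a BTB zinc finger repressor gene, was at 13.4, 12.4, 14.4, 12.9 and 14.9 FPKM in DMSO and at 6.39 to 9.06 FPKM in 20E (median 7.94). The ETS gene Ets97D, related to mammalian GABP alpha, was at 8.91, 8.45, 7.69, 7.48 and 7.62 FPKM in DMSO and at 3.81 to 5.05 FPKM in 20E (median 4.73). Both were lower in every 20E brain than in any DMSO brain (-0.76 ± 0.12, limma adjusted p = 0.000583, and -0.77 ± 0.08, adjusted p = 3.38e-06). The zinc finger gene klu was at 5.26, 5.12, 4.14, 5.64 and 9.23 FPKM in DMSO and at 2.60 to 4.60 FPKM in 20E, so its groups overlapped (-0.67 ± 0.13, adjusted p = 0.00318). The sex-determination gene dsx fell more narrowly (-0.43 ± 0.11, adjusted p = 0.0392), as did the clock gene per (-0.77 ± 0.19, adjusted p = 0.0315). The call of dsx ended without 20E replicates 2, 3, 5 or 7 or any of DMSO replicates 1 to 4 (-0.50 to -0.37). The call of per ended without any of 20E replicates 2 to 4 or DMSO replicates 1, 2, 4 or 5 (-0.85 to -0.66). With the replicate block the adjusted p was 0.0683 for dsx and 0.0726 for per. The gene nab, a transcription cofactor, fell without overlap from 4.84 ± 0.676 to 3.57 ± 0.348 FPKM (-0.42 ± 0.08, adjusted p = 0.00458).

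Chromatin genes had 3 rises and 0 falls among 60 tested by limma (5%, near the 3.34% of all tested genes, list median -0.02). They had 4 higher and 0 lower at an unadjusted p under 0.05. Kdm3 and Utx encode histone demethylases, and Bap170 a subunit of the PBAP remodelling complex. Kdm3 was at 17.5, 19.9, 14.6, 25.9 and 35.5 FPKM in DMSO and at 29.5 to 64.9 FPKM in 20E (median 38.1). Utx was at 11.7, 14.4, 8.78, 19.9 and 27.6 FPKM in DMSO and at 16 to 37.0 FPKM in 20E (median 27.1). In both the DMSO brains of run 200212 were above those of run 190514, and the groups overlapped when the runs were pooled (0.77 ± 0.13, limma adjusted p = 0.00144, and 0.65 ± 0.13, adjusted p = 0.00692). Bap170 rose by 0.53 ± 0.13 (adjusted p = 0.029), and its call ended without 20E replicates 1 or 3 or DMSO replicates 1, 3 or 4 (0.44 to 0.63). Of 74 genes of RNA polymerase II, Mediator and RNA processing 1 fell (1.35%), the polymerase subunit gene Rpb8. It was at 61.5, 70.8, 64.6, 51.1 and 58.5 FPKM in DMSO and at 25.3 to 47.4 FPKM in 20E (median 37.2), with no overlap (-0.77 ± 0.14, adjusted p = 0.00237).

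Metabolism and transport genes gave scattered calls. Of 39 membrane transporter genes 5 rose and 1 fell (15.4%, beside 3.34% of all tested genes, list median 0.01). Of the rises, E23 and Oatp74D also belong to the cascade. With 20E replicate 6 left out there were 2 falls, ine being the other. MFS3, a major facilitator gene, was at 17.7, 15.9, 13.4, 12.4 and 12.6 FPKM in DMSO and at 22.4 to 33.6 FPKM in 20E (median 28.0). No DMSO brain reached the lowest 20E brain (log2 0.94 ± 0.12, limma adjusted p = 8.25e-05). The monocarboxylate transporter gene hrm went from 10.3 ± 1.10 to 16.3 ± 3.44 FPKM without overlap (0.59 ± 0.12, adjusted p = 0.00613). The amino acid transporter genes path and mnd moved in opposite directions, path by 0.53 ± 0.13 (adjusted p = 0.0271) and mnd by -0.41 ± 0.10 (adjusted p = 0.0254). Both calls depended on single brains, path on 20E replicates 3 and 5 and DMSO replicates 3 and 4 (0.40 to 0.63), and mnd on 20E replicates 2 to 4 and DMSO replicates 1, 4 and 5 (-0.45 to -0.37).

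In the insulin, TOR and energy list 3 of 24 genes rose and 0 fell by limma, the same numbers as at an unadjusted p under 0.05. That was 12.5%, beside 3.34% of all tested genes, with a list median of 0.01. The kinase gene Pdk1 was at 32.7, 37.6, 26.4, 27.6 and 42.5 FPKM in DMSO and at 43.9 to 90.2 FPKM in 20E (median 70.8), without overlap (0.89 ± 0.17, limma adjusted p = 0.00316). The sestrin gene Sesn (0.53 ± 0.13, adjusted p = 0.0283) and the insulin-like peptide gene ILP-2 (0.55 ± 0.13, adjusted p = 0.0231) rose less. Their calls ended without 20E replicate 3 or DMSO replicate 4 or 5, and that of Sesn also without DMSO replicate 1 or 3 (0.42 to 0.57 for Sesn, 0.46 to 0.60 for ILP-2). Of 34 autophagy and cell death genes Atg17 and Pvr rose (5.88%). Atg17, of the complex that starts autophagy, was at 17.4, 22.2, 14.5, 29.8 and 31.9 FPKM in DMSO and at 32.3 to 66.2 FPKM in 20E (median 38.7). Its groups were apart by a small margin (0.75 ± 0.14, adjusted p = 0.00372).

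Among genes of sugar metabolism, chosen after their values were seen or among the falls ranked 11 to 30, directions differed. The glycogen synthase gene GlyS was at 10.7, 11.6, 8.84, 9.63 and 10.6 FPKM in DMSO and at 14.1 to 17.3 FPKM in 20E (median 16). The phosphoglucomutase gene Pgm1 was at 5.93, 3.85, 4.81, 8.42 and 7.07 FPKM in DMSO and at 9.48 to 16.2 FPKM in 20E (median 11.9). Both groups of brains were free of overlap in these genes (0.62 ± 0.08, limma adjusted p = 6.02e-05, and 0.92 ± 0.15, adjusted p = 0.000907). The galactokinase gene Galk (-0.47 ± 0.11, adjusted p = 0.0193), the UDP-glucose dehydrogenase gene sgl (-0.46 ± 0.11, adjusted p = 0.026) and the inositol phosphate synthase gene Inos (-0.55 ± 0.12, adjusted p = 0.0111) fell. Galk lost its call without 20E replicates 1 or 3 or DMSO replicates 3 or 4 (-0.54 to -0.44). The call of sgl ended without 20E replicate 3 or DMSO replicates 2, 4 or 5 (-0.49 to -0.41).

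The other falls ranked 11 to 30 were small. Madm, a gene of a kinase-like adaptor, was at 17.6, 19, 18.1, 19.6 and 20.8 FPKM in DMSO and at 12.4 to 16.1 FPKM in 20E (median 14.9). Cth, the cystathionine gamma-lyase gene, was at 6.04, 6.79, 6.81, 5.91 and 6.04 FPKM in DMSO and at 4.42 to 5.26 FPKM in 20E (median 4.79). Each was lower with no overlap between the groups (both -0.37, with limma adjusted p = 0.00216 for Madm and 0.00155 for Cth). TP53INP, a gene of autophagy, fell by 0.46 on the log2 scale (adjusted p = 0.0116). The remaining calls of these ranks, bib, rau, Ak3, emc, FucTA, Pp2C1, IP3K1, Cdk5 and CalpA, lay between -0.57 and -0.32, and each ended in at least 1 fit that left out a brain. The adenylate kinase gene Ak3 depended on 20E replicate 3 and DMSO replicates 2 and 5 (-0.60 to -0.48). For emc, the gene of a bHLH inhibitor, only the fit without 20E replicate 6 kept the call, with an adjusted p of 0.000978 there. In that brain emc was at 85.0 FPKM, inside the DMSO range of 77.3 to 92.8 FPKM, while the 20E median was 57.2 FPKM. The same pattern, a call kept only without 20E replicate 6, held for bib, CalpA and IP3K1.

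The rest of the rises ranked 11 to 30 with a symbol were pxb, sano and nw. The gene pxb was at 10.3, 12.1, 10.2, 7.41 and 9.13 FPKM in DMSO and at 13 to 25.1 FPKM in 20E (median 20.8), without overlap (1.01 ± 0.12, limma adjusted p = 2.62e-05). The planar polarity gene sano (serrano) rose by 1.07 ± 0.27 (adjusted p = 0.0354) and nw (narrow) by 0.96 ± 0.21 (adjusted p = 0.0135). The call of nw ended without DMSO replicate 4 (0.82 to 1.07 over the fits that left out 1 brain each), and that of sano in each such fit other than those without 20E replicate 7 or DMSO replicates 2 or 5 (0.93 to 1.22).

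Among called genes with the highest DMSO levels the changes ranged from small to large. Of the rises E75 of the cascade was at the top, at 74.4 FPKM in DMSO, with a log2 fold change of 2.96. It was followed by 4 genes without a name, led by LOC105184769 and LOC112588053, whose log2 fold changes were 0.36 ± 0.09 (limma adjusted p = 0.0438) and 0.48 ± 0.10 (adjusted p = 0.00812). LOC112588053 was at 68, 86.7, 71.5, 68.9 and 66.4 FPKM in DMSO and at 83.1 to 130.2 FPKM in 20E (median 96.8), so its groups overlapped only through DMSO replicate 2. LOC105185504 (0.51 ± 0.12, adjusted p = 0.0201) and LOC105187038 (0.49 ± 0.13, adjusted p = 0.049) rose from 49.4 ± 6.18 and 52.6 ± 6.89 FPKM. Of these 4, LOC112588053 kept its call whichever brain was left out. LOC105185504 lost it without 20E replicate 3 or DMSO replicates 1 or 4 (0.43 to 0.57). The other two lost it in most such fits, LOC105187038 in all but those without 20E replicates 4, 6 or 7 or DMSO replicate 2 (0.40 to 0.54), and LOC105184769 in all but those without 20E replicates 4 or 7 or DMSO replicate 5 (0.30 to 0.44). The falls with the highest DMSO levels included emc, Gycalpha99B and Rpb8, described above, with -1.0 for Gycalpha99B and -0.77 for Rpb8. Beside them LOC105181100 was at 72.5, 78.9, 73.1, 65.2 and 52.4 FPKM in DMSO and at 45.6 to 58.2 FPKM in 20E (median 50.5, -0.36 ± 0.09, adjusted p = 0.0416). Its call was kept without 20E replicate 6 or DMSO replicate 5 and ended without any of the other 10 brains (-0.42 to -0.32).

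**Figure D4:**
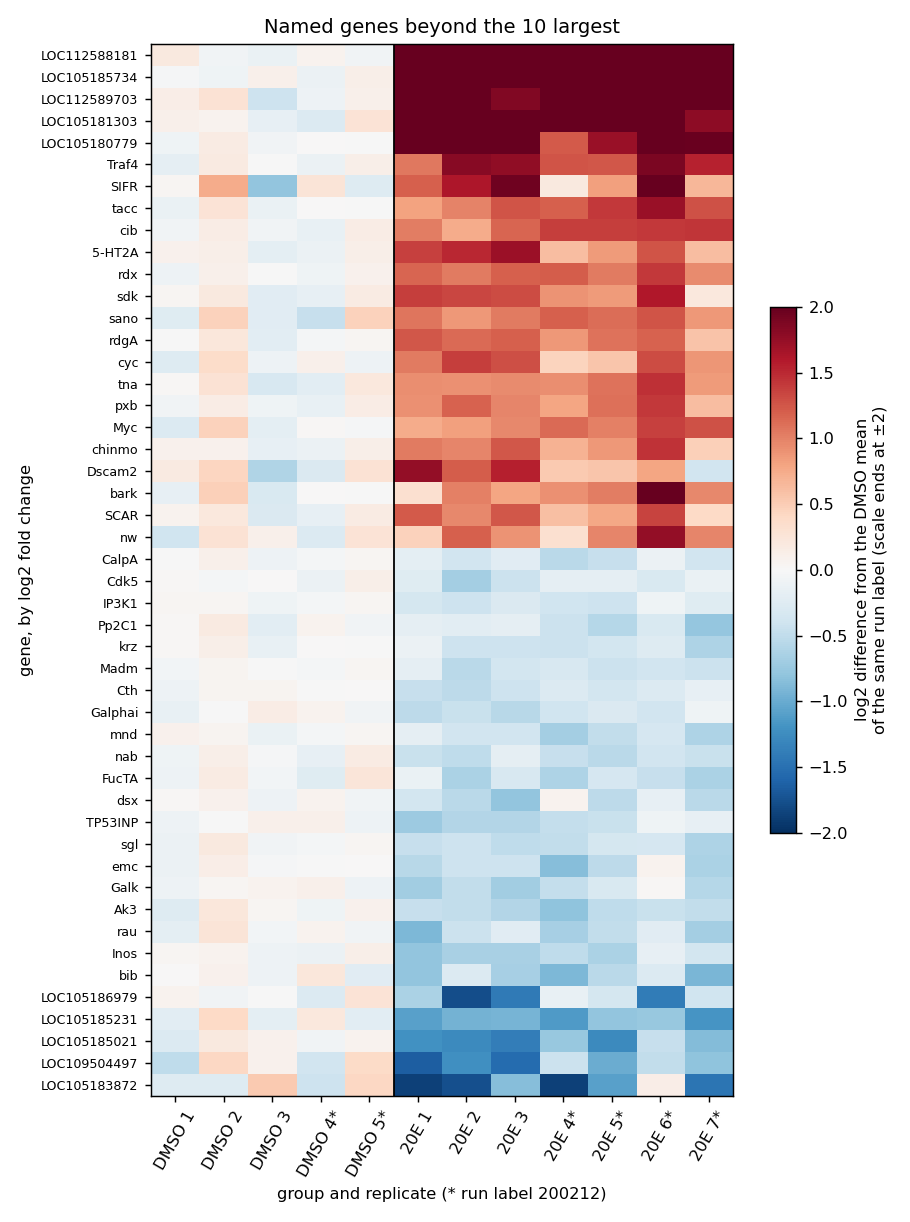
Log2 difference of each brain from the DMSO mean of its run (colour, red above and blue below, ending at 2 units). Drawn are the genes ranked 11 to 30 in each direction and the 10 largest changes without a symbol. The cascade members of these ranks, Eip74EF and Cyp18a1, are left out. The columns are the 5 DMSO and 7 20E brains. The 20E columns are red for the rises and blue for the falls with few exceptions, such as Dscam2 in 20E replicate 7 and emc in 20E replicate 6.

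Among the largest rises without a gene name, 2 are lncRNA genes. LOC112588181 was at 1.12, 0.842, 0.791, 0.850 and 0.725 FPKM in DMSO and at 9.83 to 35.0 FPKM in 20E (median 14.7). LOC112589703 was at 1.74, 2.02, 1.03, 1.97 and 2.36 FPKM in DMSO and at 6.90 to 78.7 FPKM in 20E (median 16.1). The highest value of each was in 20E replicate 6, and the groups did not overlap with or without it. The log2 fold change of LOC112588181 was 3.56 ± 0.24 (limma adjusted p = 2.09e-08) and 3.38 without that brain, and for LOC112589703 it was 2.80 ± 0.34 (adjusted p = 3.5e-05) and 2.53. It is not stated in the sources used here whether reads were counted by strand, so reads of such genes and of overlapping genes on the other strand may not be told apart.

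The protein-coding LOC105181303 was at 7.92, 7.75, 6.53, 7.10 and 10.6 FPKM in DMSO and at 31.2 to 59.5 FPKM in 20E (median 45.5), the highest level of the 5. Its response was even between ants and runs (2.43 ± 0.16, limma adjusted p = 1.36e-08, 2.55 and 2.29 within the runs). LOC105185734 started from 0.997 ± 0.401 FPKM (3.0 ± 0.19, adjusted p = 1.34e-08). LOC105180779 ran from 0.137 to 0.260 FPKM in DMSO and from 1.04 to 7.00 FPKM in 20E (log2 2.42 ± 0.27). It met the filter only through the 20E brains, at least 5 of which were thus bound to be higher. Because 0.5 is added before the logarithm, its fold is smaller than the ratio of its means.

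Of the largest falls without a name, LOC105185021 was at 4.93, 6.96, 6.41, 5.88 and 6.60 FPKM in DMSO and at 2.01 to 4.38 FPKM in 20E (median 2.32). LOC105185231 was at 1.89, 3.14, 1.90, 3.15 and 2.24 FPKM in DMSO and at 0.801 to 1.37 FPKM in 20E (median 0.939). In both the groups were apart (-1.08 ± 0.13, limma adjusted p = 3e-05, and -0.97 ± 0.16, adjusted p = 0.00119). LOC105183872 had the largest fall of all called genes (-1.28 ± 0.29, adjusted p = 0.0146), but its DMSO brains ranged from 6.75 to 27.9 FPKM. That call ended without DMSO replicate 3 or 5 (-1.48 to -1.14). The pseudogene LOC109504497 (-1.14 ± 0.26, adjusted p = 0.0168) lost its call without DMSO replicate 2 or 3 (-1.4 to -0.97), and a pseudogene can share reads with its parent gene. LOC105186979 (-0.92 ± 0.23, adjusted p = 0.029) lost it without 20E replicates 2 or 3 or DMSO replicates 1, 2, 3 or 5 (-1.06 to -0.77).

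**Figure D5:**
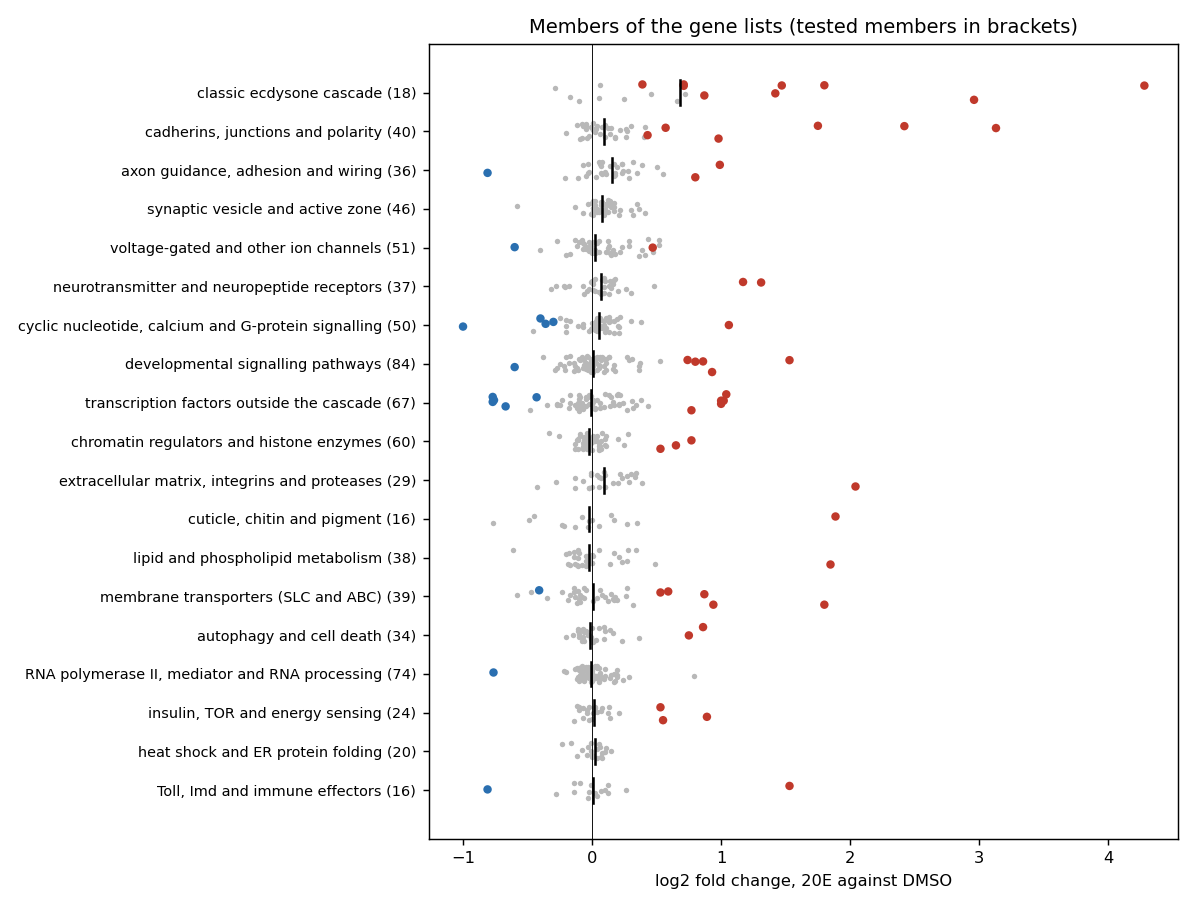
Log2 fold change of 20E against DMSO for the tested members of 19 gene lists, with 1 point per gene, red for rises and blue for falls past the threshold, grey for the others, and a black bar at the list median. The cascade has its median at 0.68 and the other lists have theirs between -0.03 and 0.16. The grey points of these lists gather around 0, and some called genes, such as Gycbeta100B at -0.30, lie within their spread.

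Other lists held few calls. In the extracellular matrix list 1 of 29 genes rose (Np, 3.45%), in the cuticle list 1 of 16 (Gasp, 6.25%), and in the lipid list 1 of 38 (oys, 2.63%), beside 3.34% of all tested genes. All 3 were among the 10 largest rises with a symbol. Np and Gasp met the filter only with the 20E brains counted. The counts that hold them, here and among the markers below, are thus a description. Without 20E replicate 6 the extracellular matrix list also had 1 fall, the metalloprotease inhibitor gene Timp (-0.55, limma adjusted p = 0.0297). The cuticle list then had 1 fall, Cpr (-0.90, limma adjusted p = 0.0267). Cpr is the gene of cytochrome P450 reductase and not of a cuticle protein, so that fall is not a result about cuticle genes. Of 16 Toll and immune genes Traf4 rose and Toll-6 fell (12.5%). Of 20 heat shock and protein folding genes 0 passed by limma, with 1 higher at an unadjusted p under 0.05, and their log2 fold changes lay between -0.23 and 0.15. Sec63, a gene of protein import into the ER, passed without 20E replicate 6 (0.21, adjusted p = 0.0171). Of the cell type marker lists, neurons (14 genes), muscle (9), fat body (6), haemocytes (5) and chemosensory organs (2) had 0 calls by limma and by limma-voom. At an unadjusted p under 0.05 they had 2, 1, 0, 1 and 0 higher genes and 0, 0, 0, 0 and 1 lower. Among 11 glial markers Gli rose (9.09%), with 2 higher and 4 lower at an unadjusted p under 0.05. The lower markers were Gat-a (-0.47), Gs2 (-0.34), repo (-0.27) and loco (-0.20), of which 0 passed adjustment. The mean log2 level of the glial list was 5.11 to 5.38 in DMSO and 4.93 to 5.58 in 20E. Among 14 markers of trachea and epidermis Gasp and Np rose (14.3%). The mean log2 level of that last list was 1.63 to 2.28 in DMSO and 1.79 to 2.74 in 20E. The part of tracheal or epidermal tissue in the rises of Gasp and Np was not tested.

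Brains given JH3 put the response to 20E beside that to another hormone. The comparisons share their 5 DMSO controls, so the values are set side by side and no overlap is given. The test of JH3 against DMSO had 87 calls (0.927%) and that of 20E against JH3 501 (5.34%). Some genes had log2 fold changes of the same sign under both hormones. Toll-6 was at 15.2 to 21.1 FPKM in JH3 (median 16.6), with a log2 fold change of -0.75 (limma adjusted p = 0.000184) beside -0.81 for 20E. Gycalpha99B had -0.71 beside -1.0. Gycbeta100B had -0.29 beside -0.30, and it did not pass for JH3 (limma adjusted p = 0.0893). For these falls the direct difference of 20E and JH3 is not given here. The rises of tna (0.86 beside 1.02), Myc (0.84 beside 1.0), chinmo (0.72 beside 1.0) and Atg17 (0.72 beside 0.75) had adjusted p of 0.00359 to 0.0144 for JH3. The direct difference of 20E and JH3 had an adjusted p of 0.325 to 0.917 in these 4 genes, which does not show that the hormones act alike.

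In other genes the hormones differed in the direct test. The zinc finger gene klu was at 9.61 to 21.6 FPKM in JH3 (median 16.8), above the 20E range of 2.60 to 4.60 FPKM, a 20E minus JH3 difference of -1.95 (limma adjusted p = 2.49e-09). The difference was -1.11 for ken (adjusted p = 1.1e-06), -0.95 for emc (adjusted p = 1.29e-05) and -0.93 for dsx (adjusted p = 4.66e-06). In dsx the JH3 brains lay at 4.52 to 5.73 FPKM, all above the DMSO brains at 3.11 to 3.62 FPKM. Among rises, tacc (1.38, adjusted p = 4.37e-08), rdgA (1.4, adjusted p = 9.34e-08) and cib (1.08, adjusted p = 9.4e-07) were higher in 20E than in JH3. Traf4 was intermediate in JH3, at 1.6 to 2.66 FPKM, above every DMSO brain. Its rise was smaller than in 20E (0.86 beside 1.53, direct difference 0.67, adjusted p = 0.00361).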

How the data were processed

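Per the labels' protocols, 600 ng of total RNA per brain gave poly(A) RNA for stranded libraries, with dUTP marking the strand. The authors deposited 1 table of FPKM values for 14001 genes and 19 libraries. Tools in the submitters' processing notes are bcl2fastq, STAR, featureCounts and DESeq2, with no role or order. For versions, build, annotation and counting options, the entry is: not given in the sources used here. Whole reads, read back from the FPKM grid for 14001 genes (100%, within 0.02 of a whole number), gave 13.04 to 25.52 M reads per library. A tested gene's median library held 559 reads of it at the median over genes, and 5.4% of genes lay under 50 reads, so folds of low genes are less precise. The authors' scaling differed from total reads by 0.763 times (20E replicate 6) to 1.125 times.

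Symbols and gene classes came from RefSeq, assembly Hsal_v8.6, which matched 13989 identifiers and left 12 without a match. No coordinates or sequences were used, and the planned promoter motif search was not run.

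The fit was limma 3.58.1 in R 4.3.3 with a trended prior on log2(FPKM + 0.5), a mean per group and the run label, over all 19 libraries. Errors are SD for levels and SE for log2 fold changes, and tests are two-sided. The fitting scripts were tested on simulated data. Python 3.11.15 with pandas 2.3.3 and numpy 2.4.6 handled the tables, and matplotlib 3.10.9 the figures. A count test was run as limma-voom on the reads read back.

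Genes were named by rule from the called genes with the same sign in both runs. The rule took ranks 11 to 30 in each direction among genes with a symbol, up to 6 called members of each of 20 gene lists (1 list and 1 named gene are not reported here), the 5 largest changes without a symbol and the 5 highest levels in each direction. Cascade members in these ranks were named through the cascade list instead. The comparison, the lists and the rule were chosen with earlier results of these data known. Replicate numbers are shared between groups but mark no shared animal. Deviations from the group means correlated between same-numbered 20E and DMSO brains (0.16 to 0.55), and, once the run was removed too, by -0.22 to 0.41. The 0.41 was that of replicate 1, whose highest value with another number of its run was -0.15. Replicates 2 to 5 lay below their highest value with another number. The numbers follow the run, which the fit holds as a term. Whether they also mark a shared colony or injection day is not stated. The block was an alternative, with the pseudocount, the filters, the scaling, library weights and leaving out each brain.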

Additional observations from a re-analysis of the deposited data

Results flagged for a closer look

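Single brains lay far from the others of their group in 24 of 216 groups of values, over 108 named genes (11.1%). Chance flags about 1 in 20 groups of values chosen on no outcome, and these genes were chosen for differences that are large against their spread. Of the 24, 18 were in 20E replicate 6, the brain that stood apart, and they were high values in every case. They were CalpA (25.0), ClC-a (12.4), E75 (882), LOC112589703 (78.7 FPKM, nearest other 20E brain 21.7), Oatp74D (34.1), SCAR (38), SIFR (9.65), Sesn (69.3), bark (6.09), chinmo (30.1), hrm (23.3), pnut (40.5), ptc (4.42), pyd (29.0), sdk (6.76), sev (20.7), spg (24.1) and vari (39.3). In sev and CalpA, which fell under 20E, this brain lay within the range of the DMSO brains.

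The other 6 were in DMSO. DMSO replicate 2 was high for Gasp (1.52 FPKM, group median 0.346), LOC105180779 (0.26), LOC112588053 (86.7) and tacc (31.0). DMSO replicate 5 was high for Teh4 (6.47) and low for sing (0.0972 FPKM, group median 0.244). No explanation of these values was tested.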

How the results depend on the processing

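The counts of called genes held within 1.5 times under most settings. Against 243 higher and 70 lower (313 in all), library weights gave 389 and 162 (551), and no run term gave 164 and 29 (193). Run 190514 alone gave 99 and 21 (120), and run 200212 alone gave 43 and 7 (50), with fewer brains. Scaling to total reads gave 110 lower genes and a split of 67.5% higher against 77.6%, with the median of all genes at -0.07. Leaving out each brain in turn gave 171 to 253 higher, 43 to 112 lower and 219 to 354 in all. Falls were most numerous without 20E replicate 6 (112) and fewest without DMSO replicate 5 (43), with 46 when 20E replicate 3 or DMSO replicate 2 was left out. Of the rises 158 kept their call in all 12 of these fits, and of the falls 28. Without 20E replicate 6 and JH3 replicate 1, chosen after seeing the data, 282 were higher and 143 lower. Where a setting with the same brains and genes moved a count, the cause was not tested. Voom on the reads read back gave 240 and 71. With the replicate number as a block in place of the run term there were 204 higher and 70 lower genes. The blocked value also ended the calls of LOC105184769 (adjusted p = 0.0846), Pp2C1 (0.102), FucTA (0.0575), bib (0.0987) and LOC105186979 (0.0813). Of the 108 named genes 41 lost their call with no run term, 27 with only the 12 libraries of 20E and DMSO, 12 with the block and 11 with no filter, and 1 to 6 under the other settings that kept all brains. No named gene with a call changed direction under any setting run. Low depth limits genes near 1 FPKM, and single-run fits have 2 or 3 DMSO brains.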
